A study of Mus musculus with 9 samples.

Results

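The Kruppel-like factors (KLFs) described here are 10 genes of mouse embryonic stem (ES) cells: Klf2, Klf3, Klf4, Klf5, Klf6, Klf7, Klf9, Klf10, Klf13 and Klf16. They were taken by gene symbol from count tables of 40213 symbols, and all 10 were present and had enough counts to be tested, among 16562 tested genes. Their counts per library ran from 265 for Klf16 to 12523 for Klf5.

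KLFs are zinc-finger transcription factors that bind GC-rich and CACCC sequences in promoters and enhancers. In ES cells, Klf2, Klf4 and Klf5 act together to hold the naive pluripotent state, and each can in part stand in for the others. Klf4 is a target of the cytokine LIF through the factor STAT3, while Klf2 depends on OCT4, the pluripotency factor encoded by Pou5f1. The other members are broadly expressed. Klf3 represses through the corepressor CtBP, Klf9, Klf10, Klf13 and Klf16 bind the corepressor SIN3A, and Klf6 and Klf7 are close relatives that mostly activate.

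The study compared 3 groups of 3 RNA-seq libraries, all from cells kept in ES medium with LIF. J1 is an ES cell line used as the control. The OCT4 and EWS-OCT4 lines are stable Niwa lines, the first carrying OCT4 and the second OCT4 fused to the RNA-binding protein EWS, and both were given 1 µg/ml doxycycline to lower their own OCT4. Strain, the promoter driving each construct, the number of clones and whether J1 also received doxycycline are not stated in the labels, and against J1 the effects of host line and construct cannot be told apart. Between the stable lines, with the number of clones not given, effects of construct and of line cannot be told apart either. The labels do not call the replicates separate cultures, so each p-value reflects the spread among these 9 libraries alone, and that spread may be technical. Library totals ran from 21149358 to 24786305 counts. Pou5f1 stood at 569 ± 61.8 CPM (edgeR counts scaled to a common library size with TMM factors; SD, n = 3) in J1, 165 ± 2.61 in OCT4 and 26.8 ± 2.12 in EWS-OCT4 libraries. Whether these include reads of the constructs is not known. In bulk RNA, fewer cells of a type and less RNA per cell cannot be told apart.

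Promoter sequences are shown for the naive factor that differed most between J1 and the OCT4 line (Klf2), the one that differed least (Klf4), and the member with the largest increase in the OCT4 line (Klf6). RefSeq sequences (build GRCm38.p6) were matched for 7 of the 10 members, and each run below is the 250 bases before the annotated start, 5′ to 3′ on the gene's strand. Capitals mark the GC box (GGGCGG), the CACCC box (CACCC), the CCAAT box (CCAAT), the core of a binding site of the MEF2 factors (TAAATTTA) and the octamer bound by OCT4 (ATGCAAAT), searched on both strands.
Klf2 promoter, chr8:72318812-72319061, plus strand: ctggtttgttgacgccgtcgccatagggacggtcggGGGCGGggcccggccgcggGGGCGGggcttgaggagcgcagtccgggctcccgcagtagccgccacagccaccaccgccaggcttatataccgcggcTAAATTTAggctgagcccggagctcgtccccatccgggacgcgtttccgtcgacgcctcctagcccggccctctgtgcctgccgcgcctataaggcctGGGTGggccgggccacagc
Klf4 promoter, chr4:55532476-55532725, minus strand: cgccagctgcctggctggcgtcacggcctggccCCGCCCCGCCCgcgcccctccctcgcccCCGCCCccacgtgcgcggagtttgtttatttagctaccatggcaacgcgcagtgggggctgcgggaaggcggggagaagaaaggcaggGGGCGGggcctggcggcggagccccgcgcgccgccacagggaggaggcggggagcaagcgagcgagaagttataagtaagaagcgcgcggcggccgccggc
Klf6 promoter, chr13:5861239-5861488, plus strand: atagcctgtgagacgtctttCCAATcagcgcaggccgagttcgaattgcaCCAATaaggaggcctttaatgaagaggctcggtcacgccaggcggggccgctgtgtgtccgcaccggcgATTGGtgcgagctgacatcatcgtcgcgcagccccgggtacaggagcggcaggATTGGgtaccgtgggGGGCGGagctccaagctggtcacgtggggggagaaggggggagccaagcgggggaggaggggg
The Klf2 window held 2 GC boxes, 1 CACCC box and 1 MEF2 core, the last starting at position -117 from the gene's start. The Klf4 window held 4 GC boxes, of which those at -217 and -212 share a base, and no CACCC box. The Klf6 window held 1 GC box and 4 CCAAT boxes. Over 32851 promoters of the same length, 32.7% held a GC box, 52.0% a CACCC box, 33.8% a CCAAT box and 1.60% the octamer. The exact letters of the MEF2 core were found in 165 promoters, or 0.502%. This core was shortened from a longer site that the Klf2 window holds. Its match there was therefore fixed beforehand, and the low share lends it no weight. The octamer was in none of the 7 windows, which do not include Klf5, Klf10 and Klf16, for which no sequence was matched. These are matches of letters in this window and say nothing of binding.

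Klf2 was highest in J1, lowest in the OCT4 line and between them in the EWS-OCT4 line. It had 190, 175 and 161 CPM in the J1 libraries, 61.1, 59.9 and 59.6 in the OCT4 libraries and 106, 109 and 112 in the EWS-OCT4 libraries. No 2 groups overlapped. The OCT4 line had 34.3% of the J1 level, a log2 fold change of -1.54 (SE 0.071, adjusted p = 3.46e-12, from the quasi-likelihood test of edgeR, Benjamini-Hochberg adjusted over all tested genes, as throughout). In the EWS-OCT4 line Klf2 was 1.81-fold above the OCT4 line (log2 0.85, SE 0.0707, adjusted p = 9.81e-09) and at 62.1% of J1 (log2 -0.69, SE 0.0691).

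Klf2 lies on chromosome 8, and the median of that chromosome's genes was below J1 in each stable line. Over 585 tested genes of chromosome 8 with a mean of at least 5 CPM, the median log2 fold change was -0.49 for the OCT4 line and -0.41 for the EWS-OCT4 line against J1. Klf2 therefore stood 1.05 (log2) below its chromosome's median in the OCT4 line and 0.27 below it in the EWS-OCT4 line. Between the stable lines the chromosome 8 median was 0.08, against 0.85 for Klf2. The part of the chromosome-wide difference in the Klf2 values was not tested.

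Klf5, which like Klf2 and Klf4 binds promoters of the pluripotency network, followed another order, with the EWS-OCT4 line far above both other groups. Its values were 128, 200 and 172 CPM in J1, 125, 117 and 130 in OCT4 and 470, 534 and 528 in EWS-OCT4 libraries. All EWS-OCT4 libraries lay above all others, whereas the J1 and OCT4 libraries overlapped, J1 replicate 1 being as low as the OCT4 line. The EWS-OCT4 line had 4.12 times the OCT4 line's level (log2 2.04, SE 0.131, adjusted p = 2.35e-08) and 3.06 times that of J1 (log2 1.61, SE 0.129). Klf5 was lower in the OCT4 line than in J1 by a log2 fold change of -0.43 (SE 0.127, adjusted p = 0.00989). That difference was -0.28 without J1 replicate 2 and -0.59 without J1 replicate 1, with an adjusted p of 0.0273 and 2.49e-07, over a range of up to 0.0411. The median of chromosome 14, where Klf5 lies, stayed between -0.14 and 0.07 in the 3 comparisons.

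Klf4, a reprogramming factor and the LIF-responsive member of the trio, differed little among the groups. J1 had 194, 196 and 202 CPM, the OCT4 line 201, 206 and 230, and the EWS-OCT4 line 160, 173 and 184. The EWS-OCT4 libraries were the lowest and overlapped neither other group, while J1 and the OCT4 line overlapped. Klf4 was lower in the EWS-OCT4 line than in the OCT4 line (log2 -0.30, SE 0.0722, adjusted p = 0.00135). Its difference between the OCT4 line and J1 was 0.10 (log2, SE 0.072, adjusted p = 0.212). Against J1 the EWS-OCT4 line was at 87.2% (log2 -0.20, SE 0.0721, adjusted p = 0.0245), a call that was lost when J1 replicate 3 (adjusted p = 0.0746) or replicate 1 or 2 of EWS-OCT4 (0.174 and 0.0777) was left out. Over all alternatives the adjusted p ran from 0.007 to 0.174.

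**Figure D1:**
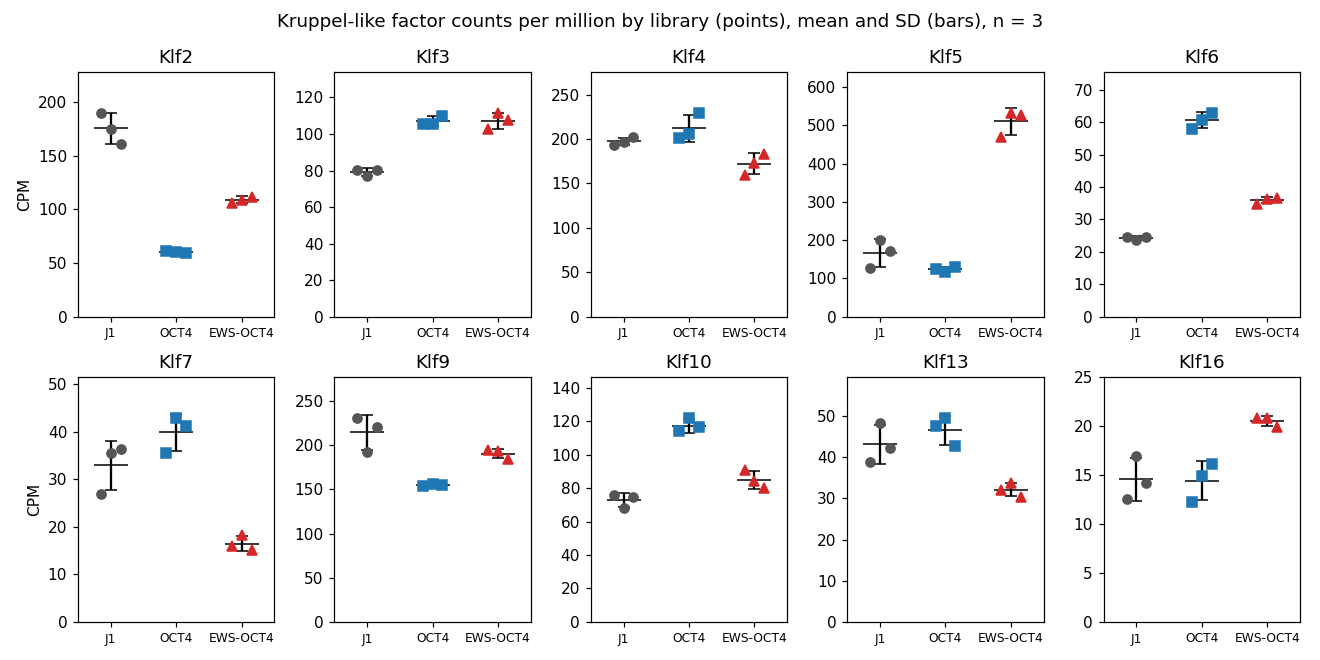
CPM of the 10 Kruppel-like factors in each library (points), with the mean and SD of each group of 3 (bars), on axes that start at 0. Klf2 is lowest in the OCT4 line (59.6 to 61.1 CPM), Klf5 is highest in the EWS-OCT4 line (470 to 534 CPM), and Klf6 and Klf10 are highest in the OCT4 line.

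Klf2 and Klf5 went opposite ways only when the EWS-OCT4 line was set against J1, where Klf2 was lower and Klf5 higher. The pair was singled out with that contrast already known, so it is given as a description. In the OCT4 line both were below J1, and in the EWS-OCT4 line both were above the OCT4 line. The log2 ratio of Klf5 to Klf2 CPM within a library was -0.57, 0.19 and 0.10 in J1, 1.04, 0.96 and 1.12 in OCT4 and 2.16, 2.29 and 2.24 in EWS-OCT4 libraries. The ratio thus had separate ranges in the 3 groups, and J1 replicate 1 was the lowest library. The group means were -0.09 ± 0.416, 1.04 ± 0.079 and 2.23 ± 0.068 (SD, n = 3).

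Per kilobase of the longest protein-coding transcript (GENCODE release M21), the leading member was a different gene in each group. Klf2 led in J1 at 94.9 ± 7.97 CPM per kb, ahead of Klf4 (65.2 ± 1.39). Klf4 led in the OCT4 line at 70.1 ± 5.08, ahead of Klf10 (38.6 ± 1.36). Klf5 led in the EWS-OCT4 line at 152 ± 10.4, ahead of Klf2 (58.9 ± 1.70). Klf7 was the lowest of the 10 in every group, at 4.29 ± 0.679, 5.20 ± 0.509 and 2.15 ± 0.208 CPM per kb. In J1 the order was Klf2, Klf4, Klf5, Klf9, Klf10, Klf3, Klf13, Klf6, Klf16 and Klf7, where Klf5 and Klf9, Klf6 and Klf16, and Klf16 and Klf7 did not differ beyond the sum of their SDs. In the OCT4 line it was Klf4, Klf10, Klf5, Klf9, Klf2, Klf3, Klf6, Klf13, Klf16 and Klf7, where Klf10 and Klf5, and Klf16 and Klf7, did not. In the EWS-OCT4 line it was Klf5, Klf2, Klf4, Klf9, Klf10, Klf3, Klf6, Klf16, Klf13 and Klf7, where only Klf2 and Klf4 did not. These orders depend on the length used. With the median length of each gene's transcripts, Klf4 led in all 3 groups.

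Summed per kb, Klf2, Klf4 and Klf5 together made 210 ± 8.27 CPM per kb in J1, 140 ± 6.29 in OCT4 and 268 ± 15.6 in EWS-OCT4 libraries (SD, n = 3). They held 61.0%, 47.8% and 65.6% of the sum over 17 KLF genes. Klf5 made up 23.6% ± 4.46 of the trio in J1, 26.5% ± 0.768 in OCT4 and 56.8% ± 0.894 in EWS-OCT4 libraries. Klf2 made up 45.3% ± 4.26, 23.4% ± 1.22 and 22.02% ± 0.743. The sum was thus lowest in the OCT4 line and the make-up differed in each group. With median lengths the Klf5 part was 14.2%, 12.5% and 38.8%.

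**Figure D2:**
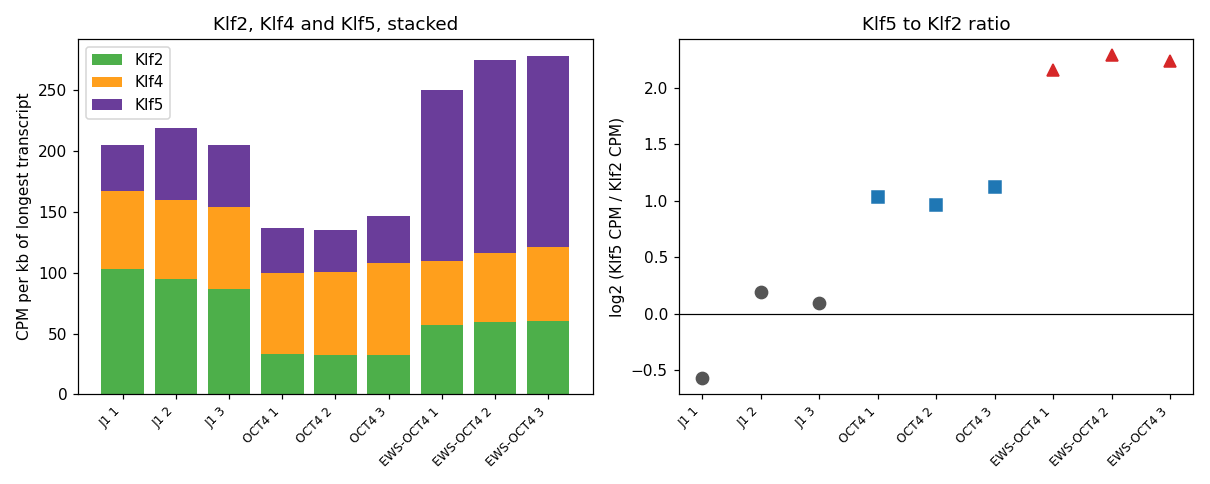
Left, CPM per kb of the longest transcript for Klf2, Klf4 and Klf5, stacked for each of the 9 libraries. Right, log2 of Klf5 CPM over Klf2 CPM per library, which lies between -0.57 and 0.19 in J1, between 0.96 and 1.12 in OCT4 and between 2.16 and 2.29 in EWS-OCT4 libraries.

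Klf6, also an early response gene, was higher in both stable lines than in J1 and highest in the OCT4 line. It had 24.5, 23.5 and 24.5 CPM in J1, 58.0, 60.9 and 63.0 in OCT4 and 34.9, 36.3 and 36.7 in EWS-OCT4 libraries. The 3 groups did not overlap. Klf6 was 2.505-fold above J1 in the OCT4 line (log2 1.32, SE 0.0702, adjusted p = 2.15e-11) and 1.49-fold in the EWS-OCT4 line (log2 0.57, SE 0.0711, adjusted p = 2.12e-06). Its relative Klf7, known from neurons, showed the reverse in the EWS-OCT4 line. Klf7 had 26.9, 35.4 and 36.3 CPM in J1, 35.5, 42.9 and 41.3 in OCT4 and 15.9, 18.2 and 15.2 in EWS-OCT4 libraries. The EWS-OCT4 line was below J1 by a log2 fold change of -0.998 (SE 0.116, adjusted p = 1.14e-06) and at 41.2% of the OCT4 line (log2 -1.28, SE 0.115, adjusted p = 3.99e-08), with no overlap. Between the OCT4 line and J1 Klf7 overlapped, and its higher level (log2 0.28, SE 0.109, adjusted p = 0.0313) was not called without J1 replicate 1 (log2 0.15, adjusted p = 0.151), OCT4 replicate 2 (0.124) or OCT4 replicate 3 (0.0918), over a range from 0.00541 to 0.151.

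Klf3, the CtBP-binding repressor, was higher by nearly the same amount in both stable lines. J1 had 80.1, 76.8 and 80.5 CPM, the OCT4 line 105, 106 and 110, and the EWS-OCT4 line 103, 112 and 107. All stable-line libraries lay above all J1 libraries. The log2 fold change against J1 was 0.43 (SE 0.0631, adjusted p = 8.8e-06) for the OCT4 line and 0.44 (SE 0.0631, adjusted p = 1.11e-05) for the EWS-OCT4 line, 2 comparisons that share the J1 libraries. Between the stable lines it was 0.00 (log2 0.0038, SE 0.0626, adjusted p = 0.961).

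Of the 4 SIN3A-binding members, Klf10 and Klf9 differed most in the OCT4 line, and Klf13 and Klf16 in the EWS-OCT4 line. Klf10, a gene induced early by TGF-beta, had 75.8, 67.8 and 74.9 CPM in J1, 114, 122 and 116 in OCT4 and 90.9, 84.3 and 80.2 in EWS-OCT4 libraries. The groups did not overlap, and the OCT4 line was 1.61-fold above J1 (log2 0.69, SE 0.0701, adjusted p = 1.14e-07). The EWS-OCT4 line was above J1 by 0.22 (log2, SE 0.0703, adjusted p = 0.0104), a call lost without EWS-OCT4 replicate 1 (0.0557), the highest of the alternatives, which reached down to 0.00393. Klf9, known as a target of glucocorticoid and thyroid hormone receptors, had 231, 192 and 221 CPM in J1, 153, 156 and 155 in OCT4 and 194, 193 and 184 in EWS-OCT4 libraries. It was lowest in the OCT4 line, at 72.1% of J1 (log2 -0.47, SE 0.0718, adjusted p = 1.54e-05). Between the EWS-OCT4 line and J1 Klf9 overlapped (log2 -0.17, SE 0.0715, adjusted p = 0.0475), and this call held in only 5 of 18 alternatives, with an adjusted p from 0.00207 to 0.166. It was lost when any library other than J1 replicate 2 was left out.

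Klf13, a factor studied in T cells and heart, had 38.9, 48.3 and 42.3 CPM in J1, 47.5, 49.6 and 42.7 in OCT4 and 32.2, 33.7 and 30.5 in EWS-OCT4 libraries. Only the EWS-OCT4 libraries stood apart, at 74.4% of J1 (log2 -0.43, SE 0.0877, adjusted p = 0.000415) and 68.9% of the OCT4 line (log2 -0.54, SE 0.0877, adjusted p = 3.49e-05). Its difference between the OCT4 line and J1 (log2 0.11, SE 0.0861, adjusted p = 0.266) passed only without J1 replicate 2 (log2 0.20, adjusted p = 0.0365), over a range of up to 0.731. Klf16, the member with the fewest counts, had 12.5, 16.9 and 14.2 CPM in J1, 12.2, 14.95 and 16.2 in OCT4 and 20.8, 20.9 and 19.9 in EWS-OCT4 libraries. It was highest in the EWS-OCT4 line without overlap, 1.41-fold above J1 (log2 0.49, SE 0.115, adjusted p = 0.00118). It was 1.42-fold above the OCT4 line (log2 0.50, SE 0.115, adjusted p = 0.000913).

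**Figure D3:**
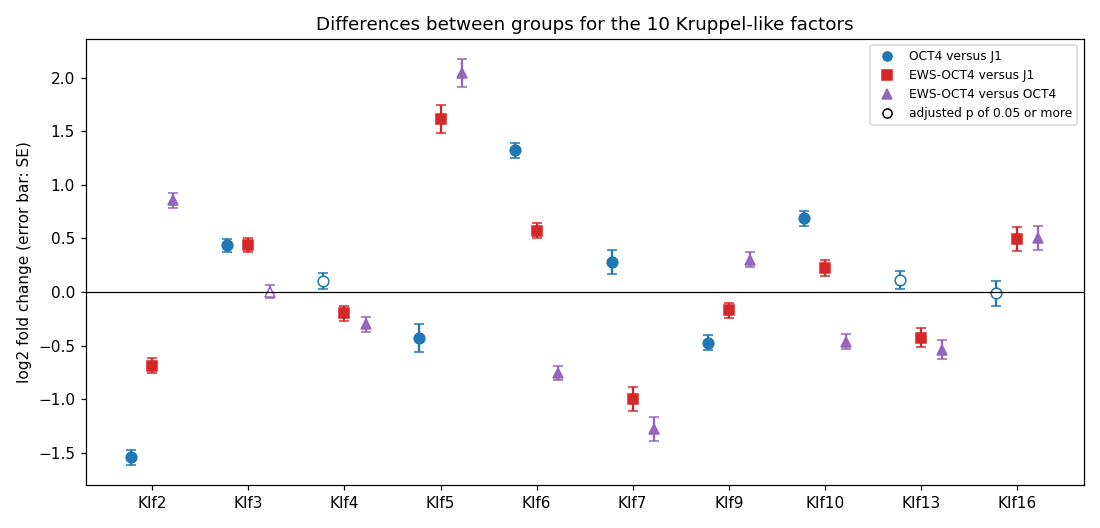
Log2 fold changes of the 10 factors in the 3 comparisons, with standard errors as bars and open symbols where the adjusted p was 0.05 or more. Klf5 has the largest values in the EWS-OCT4 line (1.61 against J1 and 2.04 against the OCT4 line), Klf2 the lowest (-1.54 for the OCT4 line against J1), and the comparisons with J1 share its libraries.

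Counted by call (adjusted p under 0.05), all 10 members differed between the EWS-OCT4 line and J1, 5 higher and 5 lower. Of all tested genes 61.9% were called there, 30.3% higher and 31.6% lower. Between the OCT4 line and J1, 7 members were called, 4 higher and 3 lower, against 67.0% of all genes (34.3% and 32.7%). Between the 2 stable lines, 9 were called, 4 higher and 5 lower, against 66.5% of all genes (31.9% and 34.6%). A call was thus common among all genes, and the members' counts are to be read against these shares. A change of at least 2-fold was called for Klf5 alone in the EWS-OCT4 line against J1 (20.5% of all genes), for Klf2 and Klf6 in the OCT4 line against J1 (26.5%), and for Klf5 and Klf7 between the stable lines (24.3%). Libraries of the 2 groups did not overlap for 9, 5 and 9 members in that order, against 65.7%, 68.4% and 72.9% of all genes. The median log2 fold change of the members was 0.03, 0.11 and -0.15, and that of all tested genes 0.00, 0.01 and -0.04. The median size of change was 0.47, 0.43 and 0.52 (log2) for the members and 0.45, 0.54 and 0.52 for all genes. All genes include many of low counts. For the 9016 tested genes averaging 10 CPM or more, as every member did, it was 0.33, 0.40 and 0.38. The members' median was above each of these 3 values, though only slightly in the OCT4 line against J1. Whether the members differ from those genes was not tested.

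**Figure D4:**
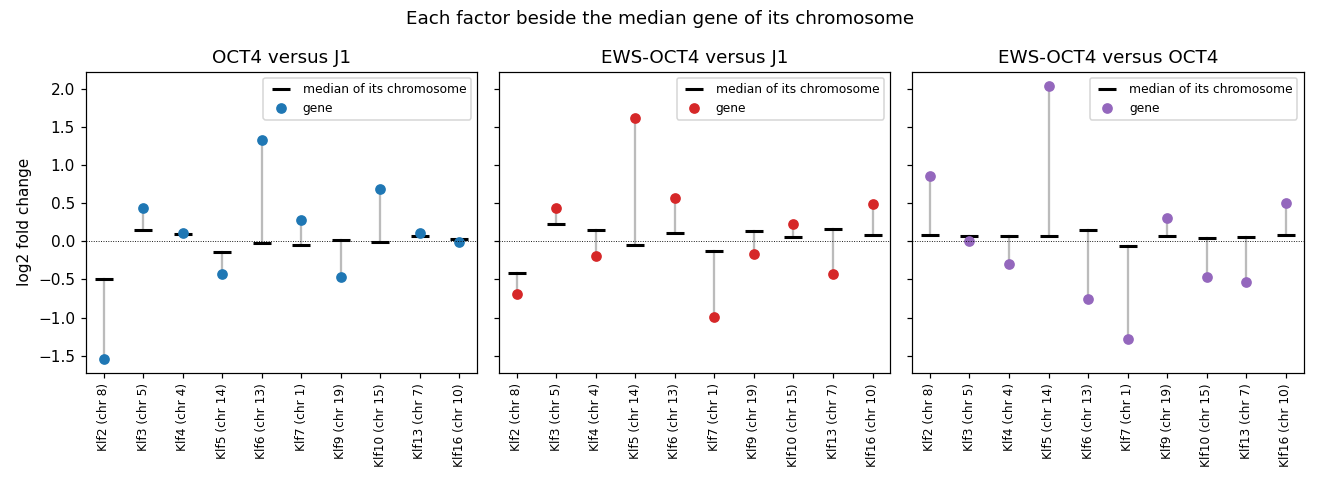
Log2 fold change of each factor (points) beside the median log2 fold change of tested genes on its chromosome with at least 5 CPM (black dashes), joined by a grey line. The median of chromosome 8, which holds Klf2, is -0.49 and -0.41 in the comparisons with J1 and 0.08 between the stable lines, while the chromosome medians of the other 9 factors lie between -0.14 and 0.22.

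Of the 7 other tested KLF genes, 1 was higher and 2 lower in EWS-OCT4 libraries than in J1, 3 were higher and 3 lower in the OCT4 line than in J1, and 3 were higher and 4 lower between the stable lines. Klf8 and Klf12 bind CtBP as Klf3 does. Klf8, which is X-linked, was higher in the EWS-OCT4 line (50.8 ± 2.99 CPM, SD, n = 3) than in J1 (27.6 ± 4.17; adjusted p = 5.33e-07) and in the OCT4 line (31.9 ± 2.49; adjusted p = 9.34e-06). Klf12 was lower in the OCT4 line (13.0 ± 2.07 CPM) than in J1 (29.5 ± 3.24) and in the EWS-OCT4 line (31.4 ± 0.944), at adjusted p values of 3.27e-08 and 1.61e-08. Among the SIN3A-binding genes, Klf11 was lower in the EWS-OCT4 line (19.9 ± 0.290 CPM) than in J1 (30.7 ± 1.32; adjusted p = 1.57e-06). Klf15, a metabolic regulator, was higher in the OCT4 line (20.5 ± 1.149 CPM) than in J1 (10.6 ± 0.713; adjusted p = 9.67e-08) and in the EWS-OCT4 line (10.2 ± 0.762; adjusted p = 6.65e-08). Klf17, known from germ cells and human naive cells, had 3.54 ± 0.545 CPM in J1, 1.203 ± 0.331 in OCT4 and 0.532 ± 0.0568 in EWS-OCT4 libraries, and was called lower in both lines than in J1. Klf1, the erythroid factor, and Klf14 stayed at or below 1.36 CPM in every library, and Klf18 was not analysed here.

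The SP factors, which bind the same GC boxes, are counted beside the KLF genes. Sp1 had 242 ± 9.92, 289 ± 13.3 and 211 ± 3.42 CPM in J1, OCT4 and EWS-OCT4 libraries (SD, n = 3), and Sp3 91.9 ± 9.95, 131 ± 4.42 and 113 ± 3.19. Sp3 and Sp4 were higher than J1 in both lines, with log2 fold changes of 0.51 and 0.67 in OCT4 and 0.30 and 0.35 in EWS-OCT4 libraries. Of 8 tested SP genes, 4 were higher and 2 lower in the OCT4 line than in J1, 3 higher and 2 lower in EWS-OCT4 libraries than in J1, and 1 higher and 4 lower in the EWS-OCT4 than in the OCT4 line. Sp5 to Sp9 other than Sp6 stayed near or below 2 CPM, and Sp8 had too few counts to be tested.

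Among genes that act upstream of KLFs, those of the LIF receptor pathway moved unevenly. Of 7 tested, 4 were higher and 1 lower than J1 in each stable line, and between the stable lines 3 were higher and 3 lower in EWS-OCT4. Stat3, the factor that carries the LIF signal to Klf4, had 106 ± 4.23, 98.1 ± 0.396 and 97.0 ± 3.83 CPM and was not called in any comparison (adjusted p from 0.0929 to 0.836). Socs3, a STAT3-induced inhibitor of the pathway, was higher in the OCT4 line (187 ± 7.78 CPM) than in J1 (85.1 ± 5.07) and in the EWS-OCT4 line (73.0 ± 4.29), at adjusted p values of 1.57e-10 and 2.19e-11. Jak2 was also highest in the OCT4 line, by 1.41 (log2) over J1, while Tyk2 was highest in the EWS-OCT4 line, by 1.05 over J1.

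The kinase ERK5, encoded by Mapk7, acts through MEF2 factors on the Klf2 promoter, and ERK phosphorylates Klf2 and Klf4 proteins. Mapk7 had 64.3 ± 3.10 CPM in J1, 28.6 ± 1.81 in OCT4 and 44.6 ± 2.56 in EWS-OCT4 libraries (SD, n = 3), the same order of groups as Klf2. Its log2 fold change was -1.17 (SE 0.0758, adjusted p = 3e-10) for the OCT4 line and -0.53 (SE 0.0737, adjusted p = 7.79e-06) for the EWS-OCT4 line against J1. Mapk7 lies on chromosome 11, the autosome with the lowest median in both comparisons (-0.49 and -0.46). Mef2d went another way, at 68.5 ± 5.50, 88.0 ± 2.83 and 47.6 ± 2.09 CPM in the same order. Map2k5 and Mef2a were higher in EWS-OCT4 libraries than in J1 (log2 0.32 and 0.38) and not called in the OCT4 line against J1. Mycn and Esrrb also had the group order of Klf2, and a link between Mapk7 and Klf2 was not tested. Of 8 tested genes of the ERK and ERK5 branches, 2 were higher and 2 lower in the OCT4 line than in J1, 4 higher and 2 lower in EWS-OCT4 libraries than in J1, and 3 higher and 2 lower between the stable lines.

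Genes for proteins that KLFs recruit or that degrade them were also counted. Of 8 cofactor genes, 6 were lower and 1 higher in the OCT4 line than in J1, and between the stable lines 6 were higher and 0 lower in EWS-OCT4, with 2 not called. Ctbp2, a partner of Klf3, had 269 ± 14.5 CPM in J1, 139 ± 6.46 in OCT4 and 304 ± 2.53 in EWS-OCT4 libraries (SD, n = 3). Hdac1, a deacetylase of the SIN3A complex, had 234 ± 5.64, 165 ± 3.61 and 299 ± 14.2 CPM. In the EWS-OCT4 line against J1, 4 cofactor genes were higher and 0 lower, led by the acetyltransferase gene Crebbp (log2 0.72, SE 0.0984). Of 3 ubiquitin ligase genes, Fbxw7 was higher than J1 in the OCT4 line (log2 0.36, adjusted p = 0.000726) and in the EWS-OCT4 line (0.61, adjusted p = 3.47e-06). Fbxo32 was lower in both, at 4.81 ± 0.511 CPM in J1 against 1.29 ± 0.0787 and 1.52 ± 0.517.

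Of 10 partners and targets of Klf2, Klf4 and Klf5 in the pluripotency network, 4 were higher and 4 lower in EWS-OCT4 libraries than in J1, 4 higher and 6 lower in the OCT4 line than in J1, and 5 higher and 3 lower between the stable lines. Tcl1, a described target of all 3 factors, was higher than J1 in the EWS-OCT4 line by 1.38 (log2, SE 0.0798). Mycn had 165 ± 5.38, 52.8 ± 2.13 and 118 ± 3.99 CPM in J1, OCT4 and EWS-OCT4 libraries, so it was lower than J1 in both lines (log2 -1.64 and -0.48) and higher in EWS-OCT4 than in OCT4 (1.16, SE 0.0655). Lefty1, a target of Klf4 and OCT4, had the list's largest changes between the OCT4 line and the other groups, at 33.0 ± 2.26, 0.535 ± 0.131 and 13.2 ± 0.879 CPM (log2 -5.94 for OCT4 against J1). Esrrb had 505 ± 20, 324 ± 12.3 and 459 ± 5.57 CPM in J1, OCT4 and EWS-OCT4 libraries. Nanog and Tbx3 were higher than J1 in both lines. Their log2 fold changes were 0.96 and 1.16 in the OCT4 line and 0.88 and 0.78 in the EWS-OCT4 line. Of 5 cell cycle genes regulated by KLFs, 3 were higher and 2 lower in the OCT4 line than in J1. Cdkn1a, a target of Klf4 and Klf6, was highest there, at 111 ± 8.60 CPM against 40.5 ± 3.02 in J1 and 25.1 ± 2.30 in the EWS-OCT4 line. In the EWS-OCT4 line 2 of the 5 were higher and 1 lower than in J1, and 3 were higher and 1 lower than in the OCT4 line, with Cdkn1c leading upward in both (log2 3.00 and 0.61).

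Klf2, Klf4, Klf6 and Klf10 are also known as genes of the immediate early response, and the 11 tested immediate early genes did not share 1 pattern. In the OCT4 line 7 were higher and 3 lower than in J1, in the EWS-OCT4 line 5 were higher and 5 lower, and between the lines 5 were higher and 6 lower. Jun was higher in the OCT4 line than in J1 by 2.14 (log2, SE 0.13) and Fos by 1.76 (SE 0.135), while Egr1 (-4.08, SE 0.147) and Myc (-1.47, SE 0.105) were lower. Myc was highest in the EWS-OCT4 line, at 45.1 ± 0.178 CPM against 18.1 ± 1.11 in J1. The summed level of all 13 listed genes ranged over 183 to 227 CPM in J1, 177 to 196 in OCT4 and 207 to 216 in EWS-OCT4 libraries.

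Markers of other cell types were measured beside these values. The 6 ES cell markers summed to 3379 to 3837 CPM in J1, 2095 to 2172 in OCT4 and 2459 to 2557 in EWS-OCT4 libraries, and none was at 0 throughout a group. This sum includes Pou5f1, which doxycycline was meant to lower, and its genes did not move alike. In J1, OCT4 and EWS-OCT4 libraries Nanog had 261, 509 and 481 CPM, and Sox2 716, 576 and 580. The 8 trophectoderm markers summed to 133 to 155 CPM in J1, 466 to 499 in OCT4 and 235 to 250 in EWS-OCT4 libraries. Of these, 7 were higher in the OCT4 line than in J1 and 6 in the EWS-OCT4 line, and 6 were lower in the EWS-OCT4 than in the OCT4 line. Cdx2 had 4 counts over the 3 J1 libraries, 539 over the OCT4 and 115 over the EWS-OCT4 libraries. Tfap2c was the largest part of the sum in J1, at 91.0 CPM. From J1 to the EWS-OCT4 line Krt8 went from 21.7 to 73.0 CPM and Krt18 from 26.4 to 54.6. Hand1 and Eomes were not called between these groups (adjusted p = 0.21 and 0.205). Klf6 and Klf10 had the same order of groups as this sum, and Klf5, which trophectoderm also expresses, did not. The part of such cells in the KLF values was not tested. The 7 primitive endoderm markers summed to 26.1 to 31.9, 21.9 to 24.3 and 10.3 to 11.7 CPM, with Dab2 the largest part in J1. Of 6 tested, 5 were lower and 1, Sox7, higher (log2 2.14, adjusted p = 8.19e-05) in EWS-OCT4 than in J1. Against J1, 3 were lower and 1, Gata6, higher (log2 2.41, adjusted p = 1.17e-06) in OCT4 libraries. Between the stable lines 1 was higher and 3 lower. The 10 fibroblast markers summed to 86.9 to 106, 61.3 to 68.7 and 42.5 to 45.02 CPM, with Dcn at 0 throughout J1 and the EWS-OCT4 line and Lum at 0 in J1 and the OCT4 line. Thy1 and Col1a1 made up most of that sum in J1. Of 6 tested, 2 were higher and 4 lower in EWS-OCT4 than in J1, with Fbn1 (log2 1.22) and Twist1 (1.31) higher. In OCT4 against J1, 2 were higher and 3 lower, with Pdgfrb (log2 1.01) and Twist1 (1.11) higher, and between the stable lines 1 was higher and 4 lower.

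Symbols of predicted-gene form (Gm and digits, ending in Rik, or holding -ps) were left out of a search for genes that resemble the naive trio. The genes whose values over the 9 libraries lay closest to those of the trio were found by the root mean square difference of log2 CPM, centred on each gene's mean, among 10314 other genes with at least 5 CPM. For Klf2 they were Ano9 (0.0576), Trim35 (0.0744), Shmt1 (0.0800) and Mia2 (0.0865). Shmt1, an enzyme of folate metabolism, had 192, 71.8 and 121 CPM in J1, OCT4 and EWS-OCT4 libraries. For Klf4 they were Paip2 (0.0572), Ndufa10 (0.0577), Psmd8 (0.0650) and Hjurp (0.0661), all of small differences between groups. For Klf5 they were Septin1 (0.115), Arhgdib (0.136), Eya1 (0.171) and Ltbp4 (0.184). Septin1 had 48.8, 37.1 and 130 CPM in the same order. The distances for Klf5 were larger than those for Klf2 and Klf4. The libraries of a group share their source, so this likeness rests mainly on 3 group means.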

How the data were processed

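RNA was measured in 9 RNA-seq libraries of mouse ES cells prepared with the CORALL V2 kit, as the labels' protocols state. For each library the authors deposited a table of gene symbols with raw, unnormalized whole counts. Salmon, STAR, fastp, GATK and build GRCm39 appear in the submitters' processing notes, without versions or roles. No source used here gives the annotation, strand setting or handling of molecular identifiers, so counts of overlapping genes are uncertain. In the RefSeq table (GRCm38.p6), Klf3, Klf7, Klf9, Klf10 and Klf13 overlap other genes, all predicted, uncharacterised or microRNA genes.

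Genes kept by filterByExpr (minimum count 10, minimum total 15) were fitted together for all 9 libraries in edgeR 4.0.16 (R 4.3.3) with TMM scaling, robust glmQLFit and glmQLFTest, with Benjamini-Hochberg adjustment over 16562 genes at 0.05. The standard error is the size of the log2 fold change over the square root of F. On simulated counts of 16562 genes for the EWS-OCT4 versus OCT4 comparison, 24%, 66%, 80% and 94% of 50 genes each changed 1.25-, 1.5-, 2- and 4-fold were recovered, with 12 calls among unchanged genes. Far fewer genes were changed there than the 66.5% called in the real comparison, and they were drawn from all expression levels. These shares therefore do not give the recovery rate for the members.

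The members and gene lists were chosen with earlier results of these data known. Named genes were all members, other KLF and SP genes, up to 2 called genes per direction and list with at least 5 CPM, and the 4 genes nearest Klf2, Klf4 and Klf5, for which 0.5 CPM was added before taking logs. Stat3, Esrrb, Fbxo32, Sox7 and Twist1 fall outside that rule and were added after their values were seen, as were the chromosome medians and neighbouring genes. Sox2, Tfap2c, Eomes, Dcn and Lum are also named outside that rule. One result is not reported here. Promoter motifs were also chosen after the data were seen, and the MEF2 core was shortened from a longer site that the Klf2 window holds. Alternatives were RLE and upper-quartile scaling, other filters, removal of 37 mitochondrial genes and Gm26917, DESeq2 1.42.0, limma-voom (limma 3.58.1), the 6 libraries compared alone, a replicate block, and leaving out each library.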

Additional observations from a re-analysis of the deposited data

How the results depend on the processing

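Of 540 member values under 18 alternatives per comparison, 512 kept their direction and their side of the threshold, 20 lost a call, 1 gained one and 7 changed sign. The sign changes concerned values near 0 that were never called. For Klf3 in EWS-OCT4 versus OCT4 the log2 value was -0.0342 with upper-quartile scaling and -0.0377 with a minimum of 5 CPM, and it ran from -0.00739 to 0.0574 when single libraries were left out. For Klf16 in OCT4 versus J1 it ran from -0.12 to 0.11 when single libraries were left out. Lost calls concerned Klf9, Klf4 and Klf10 in EWS-OCT4 versus J1 and Klf7 in OCT4 versus J1, and the cause was not tested.

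With the replicate block, 10534, 11356 and 11246 genes and 10, 7 and 9 members were called in EWS-OCT4 versus J1, OCT4 versus J1 and EWS-OCT4 versus OCT4. Samples share only a number: same-numbered libraries had deviations correlated from -0.0023 to 0.319, with 5 of 9 pairs over 0.1, and in 11 of 18 comparisons a library matched its own number best. Differently numbered libraries ranged from -0.366 to 0.312, the highest being J1 replicate 2 with OCT4 replicate 3. Deviations were taken within groups of 3, so these correlations are not independent. Leaving out single libraries gave 7 to 10, 6 to 8 and 9 members called. The order of members per kb changed for 9, 9 and 10 members in J1, OCT4 and EWS-OCT4 with median transcript lengths and for 10, 8 and 10 with the shortest, and for 0 without TMM factors. Low counts limit Klf1, Klf14, Klf17, the rarer SP genes and the rarest marker genes, of which several were not tested.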

Other observations

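Klf5 and Klf12 are neighbours among the tested genes of chromosome 14, and both were lower in the OCT4 line than in J1 and higher in the EWS-OCT4 line than in the OCT4 line. Klf12 had 29.5, 13.0 and 31.4 CPM in J1, OCT4 and EWS-OCT4 libraries. On the other side of Klf5, Pibf1 had 19.6, 44.6 and 49.7 CPM, Dis3, an exosome nuclease, 167, 170 and 280, and Bora, a mitotic kinase cofactor, 46.1, 60.5 and 71.0. These 3 were higher in the EWS-OCT4 line than in J1, with log2 fold changes of 1.34, 0.74 and 0.63, below the 1.61 of Klf5. Tbc1d4, beyond Klf12, went the other way, at 5.08, 3.39 and 2.71 CPM (log2 -0.90 for EWS-OCT4 against J1, adjusted p = 0.00124). Beside Klf2, Eps15l1 had 120, 90.8 and 98.4 CPM and Ap1m1 42.4, 39.5 and 36.0. Fam32a had 72.0, 45.2 and 86.0 CPM, and its log2 fold change in EWS-OCT4 against OCT4 was 0.93, above the 0.85 of Klf2.

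Of 7 genes of the TGF-beta pathway, which induces Klf10, 4 were higher in each stable line than in J1, with 0 lower in the EWS-OCT4 line and 1 lower in the OCT4 line, and 3 were higher and 2 lower between the lines. Smad3, a signal carrier, had 11.8 ± 0.432, 32.2 ± 1.09 and 14.6 ± 1.47 CPM in J1, OCT4 and EWS-OCT4 libraries (SD, n = 3), and was highest in the same group as Klf10. The ligand gene Tgfb1 had 13.2 ± 1.88, 2.75 ± 0.0644 and 12.5 ± 0.502 CPM and was lowest there. Smad7 was higher than J1 by similar amounts in the OCT4 line (log2 1.09) and in the EWS-OCT4 line (1.16). A link of these genes to Klf10 was not tested. Of 5 genes of the glucocorticoid response, which includes Klf9, 3 were higher and 0 lower in the OCT4 line than in J1, where Klf9 itself was lower. Tsc22d3 had 2.11 ± 0.220 CPM in J1, 11.1 ± 1.09 in OCT4 and 1.03 ± 0.282 in EWS-OCT4 libraries. In the EWS-OCT4 line 2 were higher and 2 lower than in J1, and 0 higher and 2 lower than in the OCT4 line.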
